A study of Mus musculus with 8 samples.

Results

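The Zfp zinc finger genes numbered from 500 up were followed in lumbar dorsal root ganglia (DRGs L3 to L5) of α-Gal A(-/0) mice, a model of Fabry disease that lacks the lysosomal enzyme α-galactosidase A, and of wildtype mice. A gene belonged to the group when the array file gave it the symbol Zfp with a number of 3 digits from 500 up, with or without a letter after it, which held for 179 of 34650 gene names and 280 of 55681 probes. All mice were male, 20 to 24 weeks old and C57BL/6J by their labels, while the study's methods give the background of the α-Gal A(-/0) mice as C57BL/6. Each group had 4 samples, each of which pooled the DRGs of 2 mice, and total RNA was labeled in 1 color and hybridized to the 8 arrays of 1 Agilent mouse slide. The α-Gal A(-/0) and the wildtype mice came from separate inbred colonies, so genotype and colony cannot be told apart in any comparison given here. The study also ran RT-qPCR on other α-Gal A(-/0) mice, which had been backcrossed with C57BL/6J mice. It reports Zfp932 and Hdac1 as significantly lower in them than in wildtype mice, and those measurements were not used here.

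Zfp genes of this type encode proteins with rows of C2H2 zinc fingers, short loops that hold a zinc ion and read DNA. Many also carry a KRAB domain, which recruits the co-repressor TRIM28 and through it the histone methyltransferase SETDB1, and such proteins are best known for keeping retrotransposons and other repeats silent. The genes arose largely by local duplication, and so many of them lie in clusters of similar copies.

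The probe sequences are shown first because the results turn on single probes and because copies of these genes resemble each other. Fingers in a row are joined by a short linker of glycine, glutamate, lysine and proline. The letters GGNGANAANCC, one way to write the codons of this linker, were found on the probe's own strand in 14 of 280 member probes (5.0%), against 96 of 55681 probes of the array (0.172%). On the opposite strand they were found in 0 member probes and in 37 of all probes (0.0664%). The linker letters are in capitals below. Whole 60-base probes are printed for those with the linker, and the first 30 bases for the others, 5′ to 3′.
Zfp931 called probe, minus strand of chr2:177802400-177802459: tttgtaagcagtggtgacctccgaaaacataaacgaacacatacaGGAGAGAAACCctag
Zfp936 called probe, plus strand of chr7:50445732-50445791: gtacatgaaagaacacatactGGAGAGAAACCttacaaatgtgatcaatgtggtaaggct
Zfp932 first probe, plus strand of chr5:110432776-110432835: gcaattttgggggttttgctacttaagtga
Zfp932 second probe, plus strand of chr5:110436368-110436427: ctctgaagaaatgttcatgtgtcctggtac
Zfp932 called probe, plus strand of chr5:110439205-110439264: agtgtggcctttctggcatagatgtggtgt
Zfp846 first called probe, plus strand of chr9:20398366-20398425: tcatatatgtggtgaatgtgggaaagtctt
Zfp846 second called probe, plus strand of chr9:20399180-20399239: cacaatgaggggaaatcactgatgtaagat
The positions are those of the array file, on the mouse build mm9. The probes of Zfp931 and Zfp936 each share a run of 29 bases with a probe of another gene, and these pairs are taken up beside their values. Of all 280 member probes, 61 share a run of at least 16 bases with a probe of another gene and 7 a run of at least 30.

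Each array had 59305 spots that were not controls, and 56.5 to 60.8% of the probes lay well above background. The first slide row held α-Gal A(-/0) samples 1, 2 and 3 and wildtype sample 1, with 93 to 141 spots left out as outliers. The second row held the other samples, with 196 to 221 left out, so slide row and group cannot be fully told apart. Correlations between any 2 arrays were 0.9905 to 0.9978, with wildtype samples 1 and 2 the farthest from the rest along the second principal component. Gla, the disrupted gene, averaged 16.59 ± 0.096 on the log2 scale in α-Gal A(-/0) DRGs and 16.62 ± 0.11 in wildtype DRGs (SD, n = 4 each), and where its only probe lies relative to the disruption is not given in the sources used here, so it does not check the labels. All 12 sensory neuron markers, among them Prph and Scn10a, all 5 of satellite glia and all 6 of Schwann cells were well above background on all 8 arrays. Tac1, another sensory neuron marker, was higher in α-Gal A(-/0) DRGs (log2 fold change 0.34, limma adjusted p = 0.0493). Of 4 genes listed as markers of spinal cord glia, 2 were above background on all 8 arrays, Mog (log2 fold change 0.19, adjusted p = 0.257) and Aqp4 (0.39, adjusted p = 0.0411). Olig2 was above it on no array, and Gfap was above it on 3 α-Gal A(-/0) arrays and 1 wildtype array, with 6.07 ± 1.4 and 4.44 ± 0.54 (SD, n = 4 each). The mean log2 level of these 4, Olig2 and Gfap included, ranged over 5.90 to 6.78 in α-Gal A(-/0) samples and 5.63 to 5.96 in wildtype samples. Over the tested genes of each cell type list, the median log2 fold change ran from -0.41 in red blood cells to 0.29 in spinal cord glia. Neither the cells that gave these signals nor their part in the values below was tested. In bulk tissue, fewer cells of a type and less RNA per cell cannot be told apart.

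Most of these genes gave a signal in the DRG. Of the 280 probes, 236 (84.3%), from 165 genes, lay well above background on all 8 arrays and were tested, against 52.9% of all probes. Another 24 probes were above background on some arrays and 20 on none. Of the 14 genes without a tested probe, 6 were above background on no array (Zfp541, Zfp616, Zfp735, Zfp831, Zfp853 and Zfp872), and 0 probes were above it on every array of 1 group and on none of the other. Zfp575 was above background in 3 of 4 α-Gal A(-/0) samples and 4 of 4 wildtype samples, and Zfp873 in 4 of 4 α-Gal A(-/0) samples and 2 of 4 wildtype samples.

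At an adjusted p under 0.05 in limma, called here, 8 of the 236 tested probes differed between the groups (3.39%), against 3.07% of all 29432 tested probes. This share is near the background and is no result about the genes as a group. Zfp846, Zfp783, Zfp655 and Zfp955a were higher in α-Gal A(-/0) DRGs, and Zfp932, Zfp936 and Zfp931 were lower. The 5 probes of the first 4 genes compare with 1.96% of all tested probes called higher, and the 3 probes of the others with 1.11% called lower. Among the Zfp genes with a number below 500, 8 of 227 tested probes were called (3.52%). The values of the α-Gal A(-/0) and wildtype samples did not overlap in 30 member probes (12.7%), 21 higher and 9 lower, against 13.4% of all tested probes, 8.30% higher and 5.10% lower. An unadjusted p under 0.05 was found for 36 member probes (15.3%), against 17.6% of all. At the thresholds of the methods (unadjusted p no higher than 0.01, 1.2-fold or more), limma gave 11 member probes (4.66%) against 6.03% of all, and the methods' t-test 7 against 3.56% of all. After adjustment the methods' t-test kept 3 member probes, against 0.904% of all. The median log2 fold change, α-Gal A(-/0) minus wildtype, was 0.049 over the members and 0.019 over all tested probes, and 63.1% of the member probes were positive against 55.3% of all. A change of at least 1.2-fold was seen in 9.75% of the member probes and in 14.1% of all, and of at least 1.5-fold in 1.27% and 2.17%. The median deviation of the members from their mean was 0.006 to 0.045 on single α-Gal A(-/0) arrays and -0.043 to -0.006 on single wildtype arrays, with wildtype sample 1 the lowest.

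Zfp932 showed the largest difference of all members. It encodes a KRAB zinc finger protein known from mouse embryonic stem cells, where it binds and represses endogenous retroviruses. Its called probe had log2 signals of 10.03, 10.06, 10.01 and 10.10 in α-Gal A(-/0) samples 1 to 4, against 11.33, 11.54, 11.47 and 11.39 in wildtype samples 1 to 4. The groups were far apart, and every α-Gal A(-/0) sample lay below every wildtype sample by more than the range within either group. The signal was 2.61 times lower in α-Gal A(-/0) DRGs (log2 fold change -1.38 ± 0.061 SE, limma adjusted p = 8.02e-06). It was called under all 17 alternatives, with log2 fold changes of -1.41 to -1.33. On each row of the slide the order was the same, with α-Gal A(-/0) samples 1, 2 and 3 beside wildtype sample 1 on the first row and α-Gal A(-/0) sample 4 beside wildtype samples 2, 3 and 4 on the second.

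**Figure D1:**
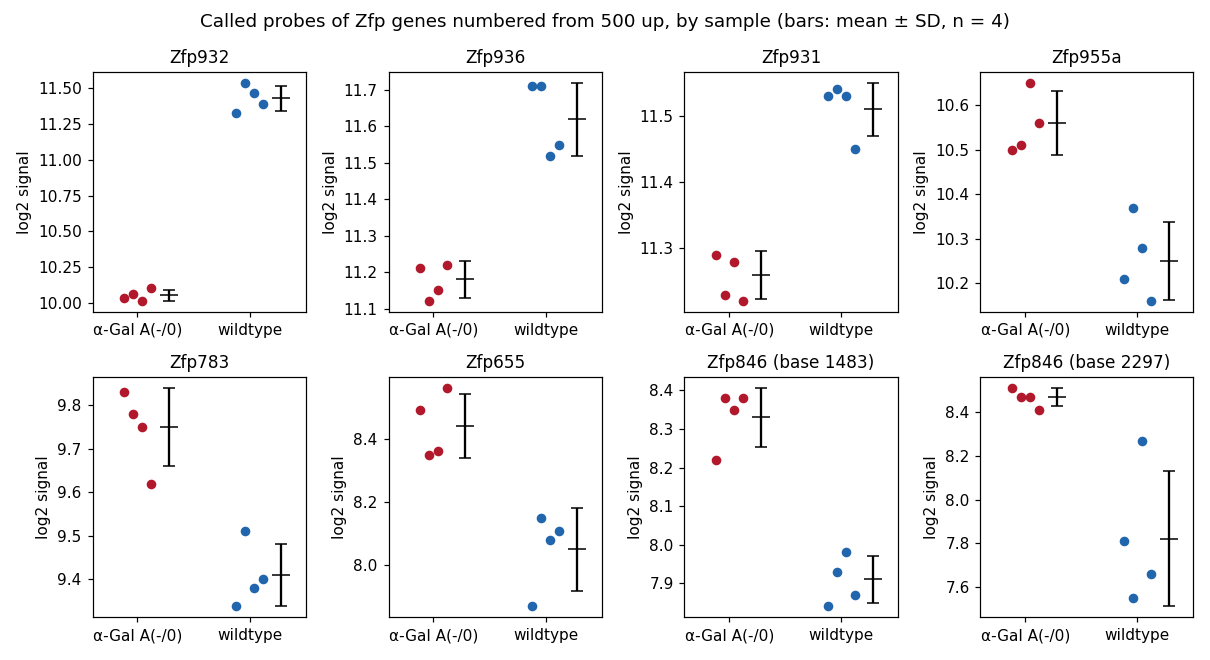
Log2 signal (y axis) of each of the 8 called probes in the 4 α-Gal A(-/0) samples (left, red) and the 4 wildtype samples (right, blue), with mean ± SD (n = 4) in black. The groups do not overlap in any panel, and the gap in Zfp932 is the widest, with 10.05 against 11.43.

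The other probes named Zfp932 did not show this difference. The second probe, 2.8 kb before the called one, had 10.39, 10.17, 10.55 and 10.31 in α-Gal A(-/0) samples against 10.13, 10.52, 10.31 and 10.39 in wildtype samples. The groups overlapped fully, with a log2 fold change of 0.02 ± 0.11 (SE, limma adjusted p = 0.944). The first probe, 6.4 kb before the called one, differed by -0.27 ± 0.20 (SE, limma adjusted p = 0.521), again with overlap. The called probe matched the RefSeq transcript of Zfp932 (base 1849), while the other 2 come from other transcript records and were not matched to RefSeq.

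Probes beyond the called one on the same strand were also lower. The array file names them as a lincRNA, a long non-coding RNA, and places that RNA across the gene. Whether they read a separate RNA or a Zfp932 transcript was not tested. At 0.8 kb past the called probe the log2 signals were 6.63, 6.06, 6.09 and 6.17 in α-Gal A(-/0) samples against 7.37, 7.45, 7.52 and 7.57 in wildtype samples. No α-Gal A(-/0) sample reached the lowest wildtype sample, and the signal fell 2.37-fold (log2 fold change -1.24 ± 0.12 SE, limma adjusted p = 0.00126). At 1.7 kb past it the means were 10.11 ± 0.13 in α-Gal A(-/0) samples and 11.03 ± 0.17 in wildtype samples (SD, n = 4 each), which is a difference of -0.92 (adjusted p = 0.00170). Another lincRNA probe on that strand, 64.8 kb before the called probe, averaged 10.24 ± 0.023 in α-Gal A(-/0) samples and 11.11 ± 0.15 in wildtype samples (SD, n = 4 each; log2 fold change -0.87, adjusted p = 0.000676). On the opposite strand a lincRNA probe 13.7 kb before the called one had a log2 fold change of 0.55 (adjusted p = 0.104). Zfp605, the nearest other member, differed by 0.01 on a tested probe 113.6 kb away (adjusted p = 0.978). Within 1 Mb of Zfp932, 2 of 34 other tested genes were called, and both were these lincRNA entries of the array file. In this and the later counts of neighbours, a gene with several probes counted as called also when only 1 of them was. The 3.07% of all tested probes called is therefore not a like share, and these counts are no result about the stretches.

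**Figure D2:**
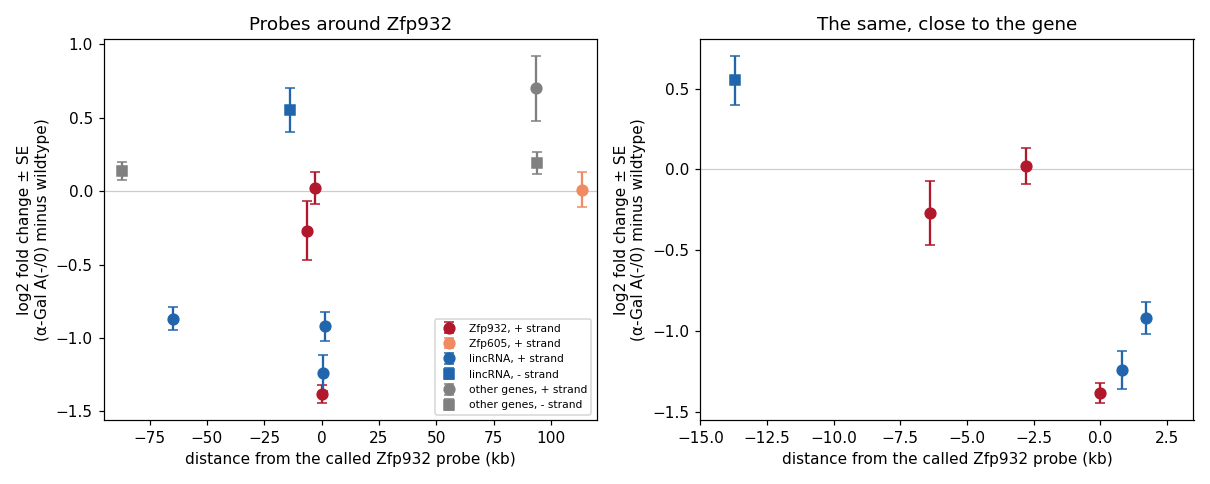
Log2 fold change, α-Gal A(-/0) minus wildtype, ± SE (y axis) against the distance from the called Zfp932 probe in kb (x axis), over the whole stretch (left) and close to the gene (right); circles lie on the plus strand and squares on the minus strand. The called probe and the lincRNA probes 0.8 and 1.7 kb past it lie between -1.38 and -0.92, while the Zfp932 probes 2.8 and 6.4 kb before it lie at 0.02 and -0.27.

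Zfp846 was the most stable of the higher genes. Its first called probe had log2 signals of 8.22, 8.38, 8.35 and 8.38 in α-Gal A(-/0) samples against 7.84, 7.93, 7.98 and 7.87 in wildtype samples. Each α-Gal A(-/0) sample exceeded each wildtype sample, and the probe was 1.34-fold higher (log2 fold change 0.43 ± 0.061 SE, limma adjusted p = 0.00796) and called under 16 of 17 alternatives. Its second probe, nearer the end of the same transcript, had 8.51, 8.47, 8.47 and 8.41 in α-Gal A(-/0) samples against 7.81, 7.55, 8.27 and 7.66 in wildtype samples. Wildtype sample 3 stood closer to the α-Gal A(-/0) samples than the other wildtype samples did, and this probe (0.64 ± 0.14 SE, adjusted p = 0.0482) was called under 3 of 17 alternatives (adjusted p of 0.00283 to 0.257), of which 1 left out a sample, wildtype sample 3 (0.79). Zfp846 was the only member with at least 2 tested probes, all of them called. Within 1 Mb, 2 of 42 other tested genes were called, Ppan, a ribosome biogenesis factor (log2 fold change 0.68, adjusted p = 0.000523), and the zinc finger gene Zfp426, where 1 of 2 probes was called (-0.34, adjusted p = 0.0482, and -0.22, adjusted p = 0.0800).

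Zfp936 was lower in α-Gal A(-/0) DRGs. Its probe with the linker printed above had 11.21, 11.12, 11.15 and 11.22 in α-Gal A(-/0) samples against 11.71, 11.71, 11.52 and 11.55 in wildtype samples. The groups did not overlap, and the log2 fold change was -0.45 ± 0.065 (SE, limma adjusted p = 0.00860), called under 15 of 17 alternatives. Another probe of Zfp936, further along the transcript, was well above background on 0 α-Gal A(-/0) arrays and 1 wildtype array. The called probe shares 29 bases with a probe of Zfp386, a zinc finger gene on chromosome 12, which was also lower there (log2 fold change -0.58, adjusted p = 0.0109). The other Zfp386 probes had -0.61 (adjusted p = 0.0336) and -0.17 (adjusted p = 0.334). Whether the 2 probes read each other's transcripts was not tested. Within 1 Mb of Zfp936, 1 of 29 other tested genes was called, Klk5, a secreted serine protease (-0.66, adjusted p = 0.00685).

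Zfp931 was lower by a small step. Its called probe had 11.29, 11.23, 11.28 and 11.22 in α-Gal A(-/0) samples against 11.53, 11.54, 11.53 and 11.45 in wildtype samples. The log2 fold change was -0.26 ± 0.051 (SE, limma adjusted p = 0.0344), with no overlap, and 7 of 17 alternatives called it (adjusted p of 0.0144 to 0.154), of which 1 left out a sample, wildtype sample 1 (-0.25). A second Zfp931 probe had a log2 fold change of -0.27 (adjusted p = 0.0828), also without overlap, with means of 9.82 ± 0.038 in α-Gal A(-/0) samples and 10.09 ± 0.12 in wildtype samples (SD, n = 4 each). Of the 26 other tested genes within 1 Mb, 2 predicted genes were called, both lower: Gm14326 on 1 of 3 probes (-0.25, adjusted p = 0.0313, with -0.15 and -0.08 on the others) and an Ensembl gene whose probe shares the 29 bases with Zfp931 (-0.26, adjusted p = 0.0259). These 3 differences were of like size, and whether the probes share signal was not tested. Other predicted genes within 1 Mb were also lower without a call, such as Gm14325 (-0.25 and -0.20) and Gm14410 (-0.22 and -0.18). Some probes there went the opposite way, such as Gm14420 (0.07) and a lincRNA probe (0.32). The small fall was thus not particular to Zfp931, and no test of the stretch was made.

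The other 3 called genes were higher in α-Gal A(-/0) DRGs and lay close to the threshold. Zfp783, which the array file describes as a long non-coding RNA, had 9.83, 9.78, 9.75 and 9.62 in α-Gal A(-/0) samples against 9.34, 9.51, 9.38 and 9.40 in wildtype samples (log2 fold change 0.34 ± 0.066 SE, limma adjusted p = 0.0316; called under 7 of 17 alternatives). Zfp655, whose human counterpart is known as a partner of the signaling protein VAV, had 8.49, 8.35, 8.36 and 8.56 in α-Gal A(-/0) samples against 7.87, 8.15, 8.08 and 8.11 in wildtype samples (0.38 ± 0.081 SE, adjusted p = 0.0438; 3 of 17 alternatives). Zfp955a had 10.50, 10.51, 10.65 and 10.56 in α-Gal A(-/0) samples against 10.21, 10.37, 10.28 and 10.16 in wildtype samples (0.30 ± 0.066 SE, adjusted p = 0.0482; 4 of 17 alternatives). The groups did not overlap in any of the 3, but none of the differences exceeded 1.31-fold. With 1 sample left out, Zfp783 stayed called without α-Gal A(-/0) sample 4 (0.38) or wildtype samples 1 (0.32) or 2 (0.37), Zfp655 without wildtype sample 1 (0.32) and Zfp955a without wildtype sample 2 (0.34), and each lost its call without any of the others. Over all alternatives the adjusted p was 0.00902 to 0.124 for Zfp783, 0.0117 to 0.140 for Zfp655 and 0.0178 to 0.152 for Zfp955a. The 2 other probes of Zfp655 had log2 fold changes of 0.20 (adjusted p = 0.190) and 0.16 (adjusted p = 0.403).

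Around Zfp783, 5 of 45 other tested genes within 1 Mb were called. A pair of lincRNA probes was lower (-1.77, adjusted p = 0.00159 and -0.81, adjusted p = 0.0268), on opposite strands of 1 locus that was counted once per strand. Ezh2, the histone methyltransferase of Polycomb (-0.62, adjusted p = 0.0167), and 1 of 4 probes of Zfp467 (-0.38, adjusted p = 0.00779) were also lower. All of these went against the direction of Zfp783. The other Zfp467 probes had 0.25, 0.04 and -0.00. Cntnap2, a cell adhesion protein of myelinated axons, was higher on 1 of 3 probes (0.33, adjusted p = 0.0345), with 0.31 and -0.02 on the others. Around Zfp655, 1 of 27 was called, Bri3, on 1 of 2 probes (0.36, adjusted p = 0.0179, and 0.40, adjusted p = 0.0555).

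Several genes had a large difference in means that was not called, and in several of these 1 wildtype sample stood out. Zfp551 had 4.79, 5.12, 5.15 and 4.99 in α-Gal A(-/0) samples against 5.41, 8.07, 5.06 and 5.04 in wildtype samples. Wildtype sample 2 alone was high, and the log2 fold change of -0.88 ± 0.61 (SE) had an adjusted p of 0.492 and was -0.16 without that sample. The same sample was high in the last Zfp937 probe, at 8.57 against 6.58 to 6.96 in the other wildtype samples and 6.75 to 6.88 in α-Gal A(-/0) samples (-0.44, adjusted p = 0.583, and 0.00 without wildtype sample 2). The other 2 Zfp937 probes gave log2 fold changes of -0.10 (adjusted p = 0.432) and 0.09 (adjusted p = 0.530).

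Wildtype sample 1 was high in Zfp865 and Zfp503. Zfp865 had 7.57, 7.62, 7.48 and 7.49 in α-Gal A(-/0) samples against 8.67, 7.60, 7.65 and 7.87 in wildtype samples (-0.41, adjusted p = 0.361), and a second probe gave -0.42 (adjusted p = 0.411) with the same sample on top. Without that sample the values were -0.17 and -0.16, and the remaining Zfp865 probe gave -0.01 (adjusted p = 0.944). Zfp503, a transcriptional repressor of the developing striatum and limb, had 8.42, 8.44, 8.33 and 8.32 in α-Gal A(-/0) samples against 9.55, 8.47, 8.83 and 8.98 in wildtype samples (-0.58 ± 0.19 SE, adjusted p = 0.166, and -0.38 without wildtype sample 1). These groups did not overlap, though wildtype sample 2 came within 0.03 of the highest α-Gal A(-/0) sample. The second Zfp503 probe differed by -0.22 (adjusted p = 0.277). Among the higher values, Zfp583 had 6.79 to 6.94 in α-Gal A(-/0) samples against 6.24 to 6.65 in wildtype samples (0.38, adjusted p = 0.0742), Zfp944 8.70 to 8.84 against 8.31 to 8.61 (0.29, adjusted p = 0.106) and Zfp677 8.67 to 8.80 against 8.09 to 8.60 (0.28, adjusted p = 0.246). Zfp708 had a log2 fold change of -0.36 (adjusted p = 0.149), with 6.23 to 6.54 in α-Gal A(-/0) samples against 6.54 to 6.99 in wildtype samples, while its other probe went the opposite way, at 0.26 (adjusted p = 0.285), with 6.83 to 7.31 in α-Gal A(-/0) samples against 6.68 to 7.02 in wildtype samples.

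Probes of the same gene often differed. Of 60 members with at least 2 tested probes, 36 had the same sign on all probes and 24 did not, and the median range between probes of a gene was 0.12 on the log2 scale. The widest was 1.40, in Zfp932, and 4 genes had a range over 0.5. Only Zfp932, Zfp931 and Zfp655 had a called probe beside a tested probe that was not called. Of the 12 tested probes with the linker letters, 2 were called, against 6 of the 224 without them and 3.07% of all tested probes. The median log2 fold change was -0.065 over the 12 and 0.053 over the 224. The 2 called are the Zfp931 and Zfp936 probes, each of which shares 29 bases with a probe of another gene. These counts are therefore no result about the linker.

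A few other members, picked for their known roles with all values in view, were not called. Zfp809, which silences murine leukemia proviruses in embryonic stem cells, had log2 fold changes of 0.13 (adjusted p = 0.426) and 0.15 (adjusted p = 0.353) on its 2 probes. Zfp568, a KRAB protein that represses a placental Igf2 transcript, had 0.23 ± 0.19 (SE, adjusted p = 0.573). Of the genes tied to neural development, Zfp521 averaged 11.22 ± 0.050 in α-Gal A(-/0) samples and 11.27 ± 0.12 in wildtype samples on its brighter probe (SD, n = 4 each; log2 fold change -0.06, adjusted p = 0.717). Zfp536, a repressor of neuronal differentiation, averaged 11.79 ± 0.14 in α-Gal A(-/0) samples and 11.86 ± 0.12 in wildtype samples (SD, n = 4 each; -0.07, adjusted p = 0.721). Zfp711, an X-linked partner of the histone demethylase PHF8, had 8.10 to 8.22 in α-Gal A(-/0) samples against 7.61 to 8.10 in wildtype samples (0.26, adjusted p = 0.228). Members that act on ribosomes also showed small differences. Zfp598, a ubiquitin ligase for collided ribosomes, had 0.04 (adjusted p = 0.875), and Zfp622, a factor of large subunit assembly, had -0.05 (adjusted p = 0.706). A p above the threshold does not show that these levels were equal.

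The mm9 positions placed members in clusters, but the called members did not share them. Linking members within 1 Mb of the next gave 28 clusters of at least 2 genes, which held 118 of the 179 genes, and left 61 alone. The largest clusters held 10 genes each, on chromosomes 7 and 17. Of the 7 called genes, 5 lay in a cluster, and 0 clusters held 2 called genes, also with links of 0.5 or 2 Mb. Zinc finger genes with other names or lower numbers were left out of these clusters. Some of them were called within 1 Mb of a called member. Zfp81 and Zfp101 near Zfp955a went its way on the called probes, while Zfp426 near Zfp846 and Zfp467 near Zfp783 went the opposite way. Chromosome 7 held the most members. Its 46 genes with a tested probe had 65 tested probes, of which 34 were positive and 31 negative, with 1 called and a median log2 fold change of 0.019. Over all 2155 tested probes of chromosome 7, 2.55% were called, 54.1% were positive and the median was 0.014. Its 10-gene cluster, from 134381189 to 135029250, had log2 fold changes of -0.09 to 0.09.

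**Figure D3:**
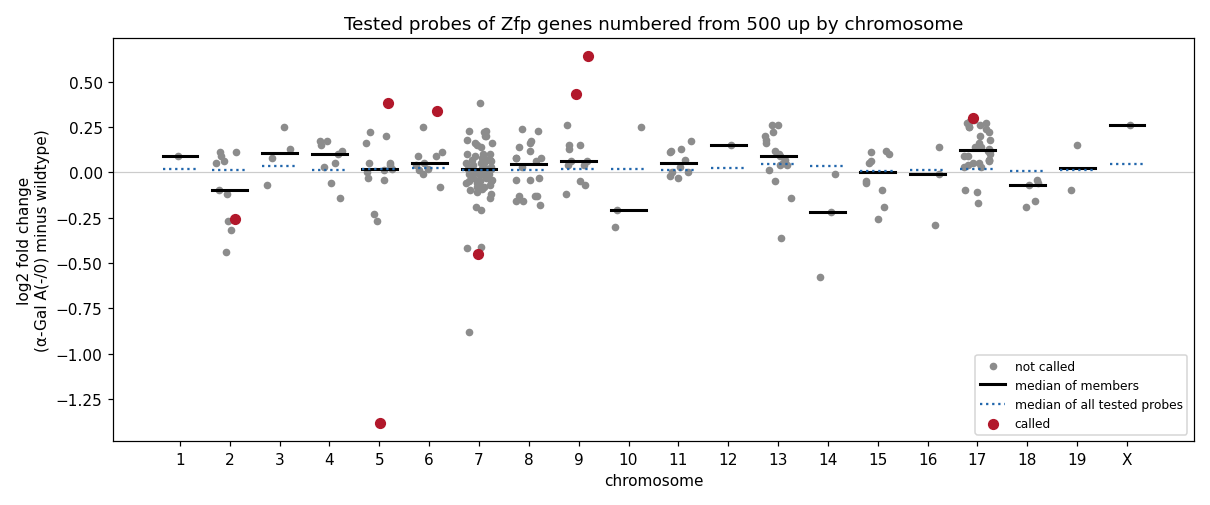
Log2 fold change, α-Gal A(-/0) minus wildtype, of the tested member probes (y axis) by chromosome (x axis), with the members' median (black) and the median of all tested probes of the chromosome (dotted blue). The 8 called probes (red) are spread over chromosomes 2, 5, 6, 7, 9 and 17, and on chromosome 17 the members' median was 0.126 against 0.019 for all probes.

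On chromosome 17 most members leaned the same way. Of 32 tested probes of its 23 genes, 29 were positive, 1 was called and 9 did not overlap between the groups, and their median log2 fold change was 0.126. Over all 1472 tested probes of the chromosome the median was 0.019, 54.6% were positive, 4.89% were called and 16% did not overlap. The members fall mainly into a pair of clusters, which were looked at because of these values, and no test of the shift was made.

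The cluster from 32910629 to 33441482 runs from Zfp871 to Zfp955b and holds 9 genes. All 10 of its tested probes were positive, with log2 fold changes of 0.05 to 0.30 and a median of 0.21. Only Zfp955a was called, against 3.07% of all tested probes, and the methods' t-test called 0 of the 10. Zfp563 had 7.84, 7.86, 7.93 and 8.10 in α-Gal A(-/0) samples against 7.53, 7.66, 7.66 and 7.81 in wildtype samples, without overlap (0.27, adjusted p = 0.138). The brighter Zfp955b probe had 10.78, 10.71, 10.74 and 10.78 in α-Gal A(-/0) samples against 10.47, 10.62, 10.57 and 10.54 in wildtype samples, also without overlap (0.20, adjusted p = 0.0917). All 60 bases of that probe recur in a lincRNA probe at the same position, which had 0.16 (adjusted p = 0.194). The cluster's median stood at 0.13, 0.18, 0.19 and 0.18 above the wildtype mean in α-Gal A(-/0) samples 1 to 4, against -0.07, 0.04, 0.01 and -0.00 in wildtype samples 1 to 4, so the samples of the groups did not overlap. Without single samples the cluster's median log2 fold change was 0.15 to 0.23, with 9 or 10 of the 10 probes positive. With normexp it was 0.14, with 9 positive. The cluster was looked at because of these same values, so these figures describe it and do not test it. Of 8 probes of other genes in this stretch, 5 were positive, with a median of 0.02, and 3 were called. Within 1 Mb of Zfp955a, 5 of 69 other tested genes were called, with Zfp101, another zinc finger gene (0.41, adjusted p = 0.0350), a lincRNA (0.30, adjusted p = 0.0462) and 1 of 4 Zfp81 probes (0.46, adjusted p = 0.0316) higher, and Morc2b (-0.65, adjusted p = 0.0314) and the immunoproteasome subunit Psmb8 (-0.44, adjusted p = 0.0485) lower. The other Zfp81 probes went both ways, at 0.26, 0.06 and -0.45, and were not called.

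The cluster from 21535980 to 22986112 runs from Zfp677 to Zfp945 and holds 10 genes. Of its 17 tested probes, 16 were positive, with a median log2 fold change of 0.14. In limma 0 were called, against 3.07% of all tested probes, and 5 had an unadjusted p under 0.05, against 17.6%. The methods' t-test called 0, against 0.904% of all. In 5 probes, of Zfp677, Zfp947, Zfp944, Zfp946 and Zfp945, every α-Gal A(-/0) sample exceeded every wildtype sample, which held for 8.30% of all tested probes. The cluster was looked at because of such values, so these counts are no result about it. Zfp946 had 11.58, 11.62, 11.76 and 11.73 in α-Gal A(-/0) samples against 11.37, 11.57, 11.54 and 11.50 in wildtype samples (0.18, adjusted p = 0.227). Here wildtype sample 1 was the lowest, and the cluster's median relative to the wildtype mean was 0.13, 0.10, 0.23 and 0.14 in α-Gal A(-/0) samples against -0.20, 0.10, 0.07 and 0.05 in wildtype samples. The samples touched at 0.10, and without wildtype sample 1 the median log2 fold change was 0.07, with 13 of 17 probes positive. With the slide row as a block it was 0.22, with all 17 positive. Of 58 probes of other genes in this stretch, 41 were positive, with a median of 0.12. Of these 58, 3 were called higher and 1 lower, against 1.96% and 1.11% of all tested probes. Among those called higher was Zfp54, a zinc finger gene with a lower number (0.61). Without overlap were 14 on the higher side and 2 on the lower, against 8.30% and 5.10% of all. These counts too describe the stretch and do not test it.

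**Figure D4:**
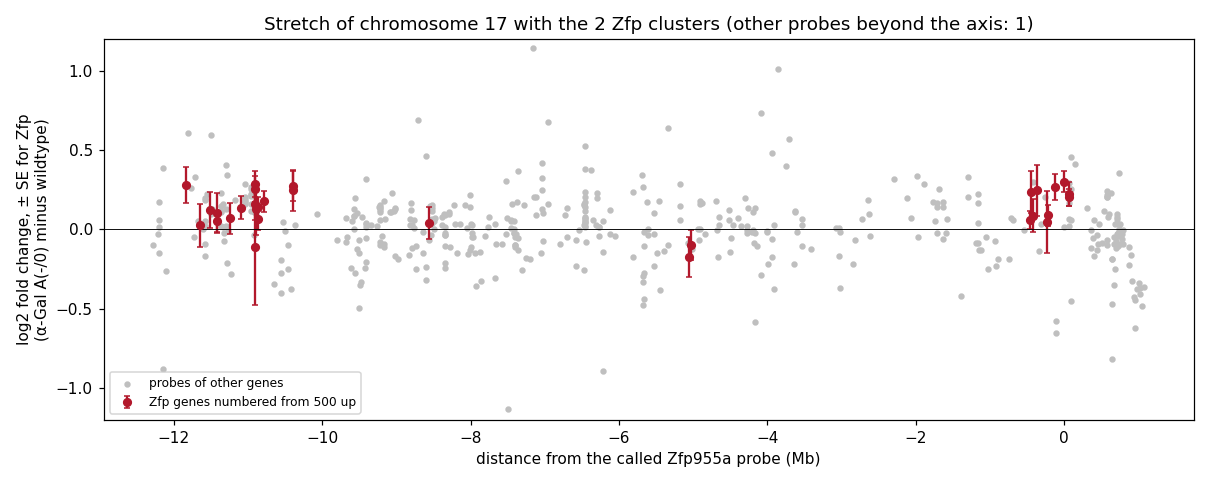
Log2 fold change, α-Gal A(-/0) minus wildtype (y axis), against the distance in Mb from the called Zfp955a probe on chromosome 17 (x axis), for member probes (red, ± SE) and probes of other genes (gray; 1 lies beyond the axis). The 10 red points of the right-hand cluster are all above 0, with a median of 0.21, and 16 of 17 in the left-hand cluster are, with a median of 0.14.

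The partners through which KRAB zinc finger proteins act were read from a list of co-repressor and heterochromatin genes, of which 36 were tested on their brightest probe. Only Hdac1, the histone deacetylase of several co-repressor complexes, was called. In limma 0 genes were called higher, 3 of the 36 had an unadjusted p under 0.05, and the methods' t-test called 1 gene. The 2.78% called and the 8.33% with an unadjusted p under 0.05 compare with 3.07% and 17.6% of all tested probes, so the count is no result about the list. Hdac1 had 12.59, 12.53, 12.69 and 12.61 in α-Gal A(-/0) samples against 13.30, 13.55, 13.50 and 13.48 in wildtype samples. The groups lay well apart (log2 fold change -0.85 ± 0.070 SE, limma adjusted p = 0.000427). Its other 2 probes, nearer the start of the transcript, were lower still, by 4.58-fold (-2.20, adjusted p = 4.32e-07) and 2.69-fold (-1.43, adjusted p = 9.07e-05). Rbbp4, a histone chaperone of the same complexes 0.21 Mb from Hdac1 on chromosome 4, had a dimmer probe that was called, with 6.48, 6.62, 6.01 and 6.25 in α-Gal A(-/0) samples against 7.28, 7.41, 7.18 and 7.08 in wildtype samples (-0.90, adjusted p = 0.00941). Its brightest probe overlapped between the groups (-0.06, adjusted p = 0.765). The related Hdac2 had a log2 fold change of 0.21 (adjusted p = 0.110).

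The core of the silencing complex gave no called difference. Trim28 had 11.17, 11.13, 11.15 and 11.05 in α-Gal A(-/0) samples against 11.35, 10.96, 11.22 and 11.21 in wildtype samples. The groups overlapped (-0.06 ± 0.085 SE, limma adjusted p = 0.760). Setdb1 averaged 9.48 ± 0.10 in α-Gal A(-/0) samples and 9.39 ± 0.097 in wildtype samples (SD, n = 4 each; log2 fold change 0.09). Next after Hdac1 and Hdac2 in adjusted p were Suv39h2, a histone H3 lysine methyltransferase (-0.14, adjusted p = 0.283), and Tasor, a member of the HUSH silencing complex (-0.17, adjusted p = 0.292). Over the list, 11 genes were positive and 25 negative, with a median log2 fold change of -0.056 against 0.019 over all tested probes.

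**Figure D5:**
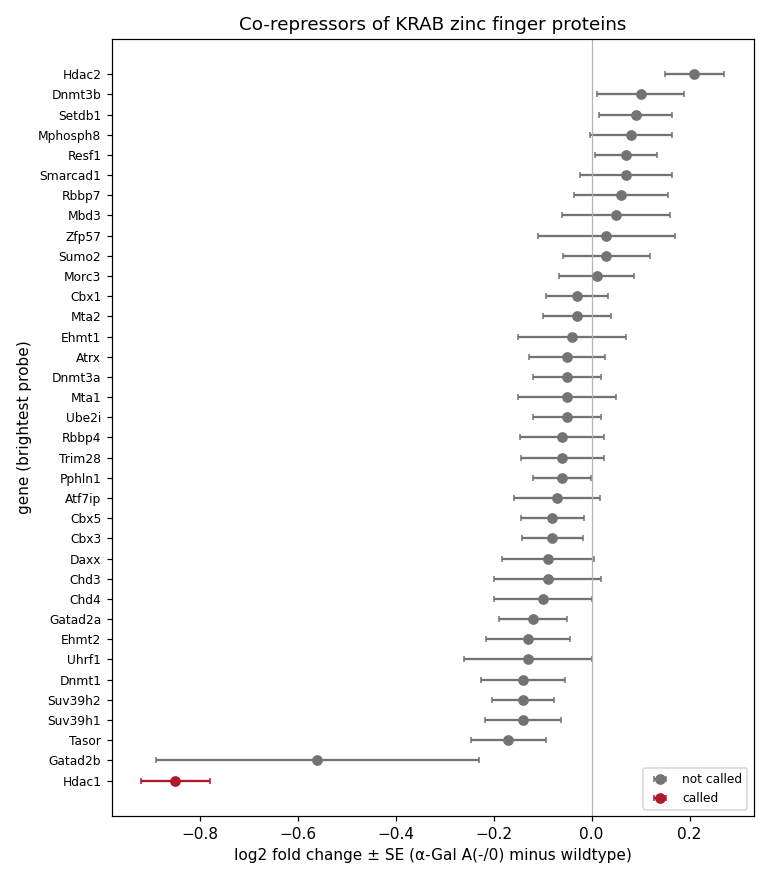
Log2 fold change, α-Gal A(-/0) minus wildtype, ± SE (x axis) of the brightest probe of 36 co-repressor and heterochromatin genes (y axis). Hdac1, at -0.85, is the only called gene (red), and Trim28 lies at -0.06.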

How the data were processed

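RNA of 8 DRG samples, 4 α-Gal A(-/0) and 4 wildtype, was measured on 8 arrays. The deposited spot values are scanner intensity values, which Agilent Feature Extraction (version 10.7.3.1 in the submitters' processing notes) had adjusted for background. A deposited table of log2 values, which the authors had quantile normalized, served as an alternative. Here outlier spots were left out, spots of 1 probe were averaged on the log2 scale, and 55681 probes were quantile normalized. The 29432 probes well above background on all 8 arrays (in at least 0.5 of a probe's spots) were compared with limma 3.58.1 in R 4.3.3, with Benjamini-Hochberg adjustment over all of them. Fold changes are differences of mean log2 signal. Errors after fold changes are standard errors. Signals are relative to the array's other probes, and their precision is limited by the number of arrays. Each sample pools 2 mice. For lists, the brightest probe of a gene by mean signal was used, and no level of a gene was compared with that of another gene.

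The members and all lists were chosen with earlier results of these data known. Genes named are the members with a called probe and their other probes, the 8 most positive and the 8 most negative fold changes, Zfp932, called co-repressors with the 4 smallest adjusted p, Gla, Hdac1, up to 2 markers per cell type, and up to 5 called genes within 1 Mb of each called member. Zfp575, Zfp873, members picked by role, members of the chromosome 17 clusters, Zfp386 and other genes were added after their values were seen. Gene symbols are those of the array file. RefSeq accessions matched 256 member probes and not 24, and Zfp607 is now Zfp607a. Alternatives were a scaling to the 75th percentile, normexp, other filters, the methods' t-test (Welch), a replicate block, array weights, the slide row, the deposited table, the methods' criteria, 1 probe per gene and leaving out each sample. The model was tested on simulated data. Protein sequences were not used here.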

Additional observations from a re-analysis of the deposited data

Results flagged for a closer look

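Of 44 groups of 4 values examined for a sample far from its group, 3 held one. The rule would flag about 5% of unselected groups by chance. These groups came from named probes picked for calls or large differences in the same data, so that rate is no yardstick for them. All 3 lay in wildtype DRGs. In Zfp551, wildtype sample 2 had a log2 signal of 8.07 and the other 3 had 5.04 to 5.41. In Zfp677, wildtype sample 1 had 8.09 and the others 8.54 to 8.60. In the called Zfp931 probe, wildtype sample 4 had 11.45 and the others 11.53 to 11.54.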

How the results depend on the processing

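The count of called member probes, 8 as reported, was 8 with the 75th percentile scaling and with normexp, 11 at the methods' criteria and 6 with 1 probe per gene. It was 5 with signal on 4 of 8 arrays, 4 with no filter, 3 with the methods' t-test, 15 with array weights, 5 with the slide row as a block, 3 with the deposited table, and 3 to 6 when a sample was left out: 3 without α-Gal A(-/0) sample 1, 2 or 3 or wildtype sample 4, 4 without α-Gal A(-/0) sample 4 or wildtype sample 3, and 6 without wildtype sample 1 or 2. The calls over all probes moved too: 3.07% as reported, 2.62% with signal on 4 of 8 arrays, 1.0% with no filter, 0.904% with the methods' t-test, 7.14% with array weights, 2.80% with the slide row, 1.58% with the deposited table and 1.41 to 3.53% when a sample was left out. The count called higher, 5 as reported, was 2 with signal on 4 of 8 arrays, 1 with no filter, the methods' t-test or the deposited table, 8 with array weights, 3 with the slide row or 1 probe per gene, and 1 to 3 when a sample was left out. The count called lower, 3 as reported, was 7 with array weights and 2 to 3 when a sample was left out. As reported, 1.96% of all tested probes were called higher and 1.11% lower. These shares by direction are not given for the other settings, so the moves by direction are no result about the members. The replicate numbers shared by the groups do not pair the samples, since same-numbered samples correlated at 0.063, -0.245, -0.047 and -0.021 in their deviations. With the replicate block 1 member probe was called, Zfp932, with 0 higher and 1 lower, and 284 of all probes. The median log2 fold change of the members, 0.049, was 0.027 with array weights and 0.028 to 0.059 when a sample was left out, lowest without wildtype sample 1. The count of called co-repressor genes was 1 in each of 17 alternatives. Over the named probes, 4 values changed sign: the last Zfp937 probe without wildtype sample 2 (0.00, in a range of -0.66 to 0.00 when a sample was left out), and the second Zfp932 probe with array weights (-0.02) and without α-Gal A(-/0) sample 3 or wildtype sample 1 (-0.05 each, in a range of -0.05 to 0.08). The cause of these changes was not tested. The 20 member probes that were well above background on no array have only a bound there, and 24 more were above it on some arrays.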
